A study of Mus musculus with 6 samples.

Results

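The gene of the tumour suppressor p53 (Trp53) and 9 of its transcriptional targets were followed in cultured stromal cells of mouse visceral fat after exposure to irisin. The genes are Mdm2, Cdkn1a, Bax, Bbc3, Ccng1, Phlda3, Sesn1, Sesn2 and Zmat3, taken by symbol, and all 10 were found among the 55011 gene symbols of the deposited count table. The treated cells received 10 nM irisin/HSP90α for 3 days (n = 3, called irisin below), and the control cells received phosphate-buffered saline (PBS) for 3 days (n = 3). Both groups consisted of cells without EGFP from an Il33 reporter, taken from visceral fat that the design text calls eWAT (epididymal white adipose tissue). Irisin is a hormone cut from Fndc5 of muscle, and HSP90α is a chaperone found within cells and also secreted. It is not stated whether control wells received HSP90α as well, nor whether replicates were separate cultures or animals. The p-values below thus rest on a spread between libraries that may be technical.

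p53 is a transcription factor that is held low by the ubiquitin ligase Mdm2 and is stabilised after DNA damage and other stresses. It then switches on genes that stop the cell cycle, start apoptosis through mitochondria, or adjust metabolism, and it switches on Mdm2, which closes a feedback loop. Most of its control acts on the protein, so the level of Trp53 messenger RNA is not a measure of p53 activity. In fat, p53 and its target Cdkn1a are known from studies of obesity and ageing, where p53 is linked to senescence and inflammation of the tissue.

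Total counts per library were between 5360724 and 6588363 in irisin and between 5271309 and 6745799 in PBS, so that 1 CPM (counts relative to library size, scaled by TMM factors) stood on 5.17 to 6.89 counts. Of 12296 genes tested, 912 passed an adjusted p of 0.05 in edgeR's quasi-likelihood test, 516 of them higher with irisin and 396 lower. With libraries scaled by total counts alone, 41.2% of the calls were higher, against 56.6% with TMM factors. The cells had the markers of fat stroma in both groups. The stromal markers went both ways: of 11 tested, 2 rose (Pdgfra and Col1a1) and 4 fell (Dpt, Cd34, Thy1 and Lum). Their summed level, mostly from the collagen genes Col3a1, Col1a1 and Col1a2, was 51514 to 56370 CPM in irisin and 38289 to 45818 CPM in PBS. Of 9 leukocyte markers 3 were tested and none passed (0 at an unadjusted p under 0.05 in edgeR). The list summed to 62.4 to 86.9 CPM in irisin and 66.6 to 81.9 CPM in PBS, mostly from Csf1r (59.2 CPM in irisin, 59.7 CPM in PBS), while the pan-leukocyte gene Ptprc averaged 0.171 CPM in irisin and 0.312 CPM in PBS and Cd3e was at 0 in all libraries. Of 7 endothelial markers, Tek was the sole one tested and fell (22.4 CPM in irisin, 33.8 CPM in PBS), and Pecam1 averaged 0.107 CPM in irisin and 0.624 CPM in PBS. The sole mesothelial marker tested of 6 was Wt1 (43.2 CPM in irisin, 37.5 CPM in PBS, not called), and Upk1b was at 0 in all libraries. Of 5 mural markers 3 were tested, of which Cspg4 fell (2.23 CPM in irisin, 6.87 CPM in PBS) and Myh11 and Notch3, at 30.2 and 39.8 CPM in irisin and 35.0 and 33.2 CPM in PBS, did not pass. Of 8 adipocyte markers, 7 were tested and all 7 fell, and Lep was at 0 in all libraries. Fewer cells of a type and less RNA per cell cannot be told apart in such bulk samples. PBS replicate 3 and irisin replicate 1 stood apart from the other 4 libraries on the second principal component, which held 23.9% of the variance.

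Most of the p53 genes moved by a small fold. Trp53 itself rose 1.26-fold, Phlda3 fell, and the other 7 genes tested did not pass, each with a fold change within the range 0.823 to 1.20. Bbc3 lay below the count filter and was not tested. Thus 1 of 9 tested genes was higher and 1 was lower, where 4.20% of all genes tested were higher and 3.22% were lower. At an unadjusted p under 0.05 in edgeR's quasi-likelihood test, 1 of the 9 was higher (Trp53) and 3 were lower (Phlda3, Mdm2 and Cdkn1a). For scale, the gene Sardh, at an unadjusted p of 0.0491 in that test, ranked 2222 among all 12296 genes tested. The median log2 fold change of the 9 genes was -0.06, and that of all genes tested was -0.01. In 2 of the 9 all irisin values lay above all PBS values and in 3 they lay below, against 12.1% and 11.5% of all genes tested. The summed level of the 10 genes was 745 to 805 CPM in irisin and 750 to 780 CPM in PBS, ranges that overlap.

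**Figure D1:**
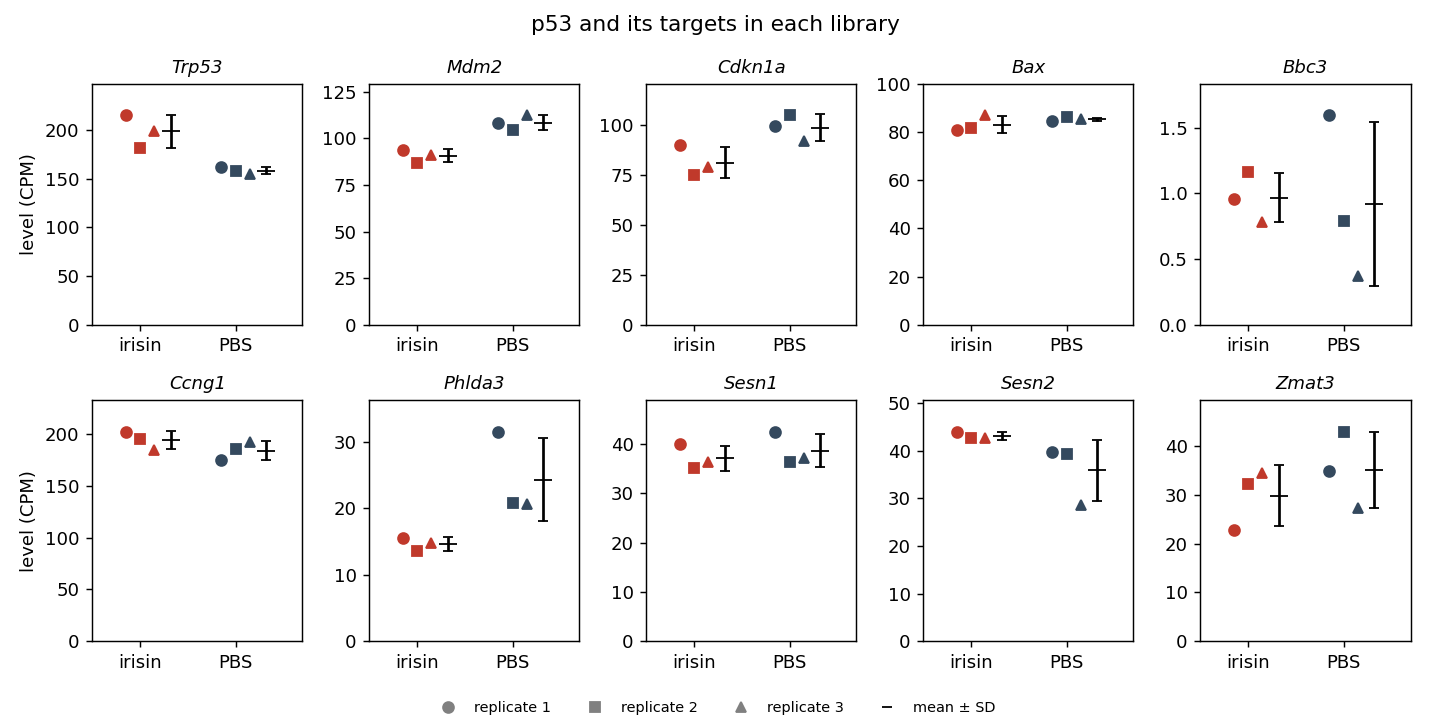
Level in CPM (vertical axis, from 0, a scale of its own in each panel) of Trp53 and its 9 targets in 3 irisin and 3 PBS libraries, with a symbol for each replicate and a bar for mean ± SD. The irisin points of Trp53 and Sesn2 sit above all PBS points, those of Mdm2, Cdkn1a and Phlda3 sit below, and the groups overlap in the other 5 panels.

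Trp53, which encodes p53, had 215, 182 and 199 CPM in irisin replicates 1, 2 and 3, against 162, 158 and 155 CPM in PBS replicates 1, 2 and 3. The groups did not overlap, and the irisin libraries were spread more widely than the PBS libraries. The mean was 199 ± 16.8 CPM in irisin and 158 ± 3.73 CPM in PBS (SD, n = 3 each). The log2 fold change was 0.33 ± 0.09 (SE), with a 95% confidence interval from 0.14 to 0.52 and an adjusted p of 0.0399 in edgeR's quasi-likelihood test. The call was lost with total counts alone (adjusted p = 0.126) and on leaving out any single library other than PBS replicate 3 (adjusted p 0.0579 to 0.161). Trp53 lies on chromosome 11 from 69580359 to 69591873 on the plus strand of GRCm38 (mm10, GENCODE M21), and shares no exon bases with another annotated gene. The annotated pseudogene Trp53-ps had 11 counts over all 6 libraries.

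Mdm2, the ubiquitin ligase that marks p53 for destruction and is itself a p53 target, had 93.9, 87.0 and 91.3 CPM in the irisin libraries, against 108, 105 and 112 CPM in the PBS libraries. All irisin values lay below all PBS values, yet the gene did not pass. Its log2 fold change was -0.26 ± 0.09 (95% confidence interval -0.45 to -0.06, adjusted p = 0.118 in edgeR's quasi-likelihood test). With total counts alone Mdm2 passed as lower (adjusted p = 0.0408), and likewise with irisin replicate 1 and PBS replicate 3 omitted together (adjusted p = 0.0396). Under that omission 1680 genes passed in all, against 912 with all libraries. Mdm2 lies on the minus strand of chromosome 10, from 117688875 to 117710758.

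Cdkn1a encodes p21, the inhibitor of cyclin-dependent kinases through which p53 stops the cell cycle in G1. It had 89.8, 75.0 and 78.7 CPM in irisin, against 99.4, 105 and 91.7 CPM in PBS. The groups did not overlap, but the gap between irisin replicate 1 and PBS replicate 3 was small. The log2 fold change was -0.28 ± 0.10 (95% confidence interval -0.50 to -0.06, adjusted p = 0.145 in edgeR's quasi-likelihood test), so Cdkn1a did not pass. It passed as lower without PBS replicate 3 (adjusted p = 0.0462), with irisin replicate 1 and PBS replicate 3 omitted together (adjusted p = 0.000904), and with limma-voom (adjusted p = 0.0300). Calls over all genes also rose under these settings, to 1290, 1680 and 1271, against 912 as reported. Cdkn1a lies on chromosome 17 from 29090976 to 29100727, and 273 of its exon bases overlap an unconfirmed transcript on the opposite strand. No source used here says whether counting used strand.

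Ccng1 encodes cyclin G1, a p53 target that acts with a phosphatase on Mdm2. It had 202, 195 and 185 CPM in irisin, against 174, 186 and 192 CPM in PBS. The groups overlapped, and the log2 fold change was 0.08 ± 0.08 (95% confidence interval -0.10 to 0.26, adjusted p = 0.727 in edgeR's quasi-likelihood test).

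Phlda3, a p53 target that competes with the kinase Akt for membrane lipids, showed the largest fold change of the 9 tested genes. It had 15.5, 13.5 and 14.8 CPM in the irisin libraries, against 31.5, 20.8 and 20.6 CPM in the PBS libraries. The irisin values lay close together and below all PBS values, and PBS replicate 1 was the highest library. The log2 fold change was -0.74 ± 0.19 (95% confidence interval -1.14 to -0.33, adjusted p = 0.0300 in edgeR's quasi-likelihood test), a level 0.600 times that in PBS. Without PBS replicate 1 the log2 fold change was -0.50 and the call was lost (adjusted p = 0.159), as it was on leaving out any irisin library (adjusted p 0.0599 to 0.131). The summed level of the 8 adipocyte markers was 164, 223 and 205 CPM in irisin replicates 1, 2 and 3, against 1174, 725 and 749 CPM in PBS replicates 1, 2 and 3. PBS replicate 1 was thus highest for both Phlda3 and these markers, whose part in the result was not tested. Phlda3 lies on the plus strand of chromosome 1 from 135766119 to 135769136.

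The genes whose levels ran most like Phlda3 over the 6 libraries, by Pearson's r of log2 CPM among 8807 tested genes that averaged 10 CPM or more, were Camk2d, Sardh, Tnfaip6, Ccdc12 and Phf12 (r 0.979 to 0.986). Of these, Tnfaip6, a hyaluronan-binding protein, also fell (log2 fold change -0.49 ± 0.13, adjusted p = 0.0400 in edgeR's quasi-likelihood test). The 6 points of such a correlation fall into the 2 groups and share depth and treatment, so it is a description of likeness only.

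Of the targets followed here that act in apoptosis through mitochondria, Bax stayed level and Bbc3 was too low to test. Bax, a pore-forming protein of the outer mitochondrial membrane, had 80.7, 81.6 and 87.0 CPM in irisin, against 84.5, 86.0 and 85.2 CPM in PBS. The groups overlapped, and the log2 fold change was -0.04 ± 0.09 (95% confidence interval -0.23 to 0.16, adjusted p = 0.901 in edgeR's quasi-likelihood test). A change of Bax larger than 1.12-fold up, or below 0.850 times the PBS level, lay outside this interval. Bax shares 192 exon bases with a predicted gene on its strand. Bbc3 encodes PUMA, which sets off Bax by binding its BCL-2 family inhibitors. It had 6, 6 and 5 counts in irisin and 11, 5 and 2 counts in PBS, which is 0.960, 1.16 and 0.786 CPM in irisin against 1.60, 0.792 and 0.368 CPM in PBS. Exact 95% Poisson intervals, which cover counting error only, ran from 0.255 to 2.52 CPM over the irisin libraries and from 0.0446 to 2.86 CPM over the PBS libraries. The groups overlapped, with 17 counts in irisin and 18 counts in PBS in all.

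The sestrins curb the growth kinase mTORC1 when amino acids are short and take part in the defence against oxidants. Sesn1 had 40.0, 35.2 and 36.3 CPM in irisin, against 42.5, 36.3 and 37.2 CPM in PBS, and the groups overlapped (log2 fold change -0.06 ± 0.12, 95% confidence interval -0.32 to 0.20, adjusted p = 0.878 in edgeR's quasi-likelihood test). Sesn2 had 44.0, 42.7 and 42.6 CPM in irisin, against 39.8, 39.3 and 28.5 CPM in PBS. All irisin values lay above all PBS values, and PBS replicate 3 was far below the other 2. The log2 fold change of 0.26 ± 0.14 did not pass (95% confidence interval -0.03 to 0.56, adjusted p = 0.351 in edgeR's quasi-likelihood test), and without PBS replicate 3 it was 0.13. Zmat3, an RNA-binding zinc finger protein that p53 uses to control splicing, had 22.7, 32.3 and 34.4 CPM in irisin, against 34.98, 42.9 and 27.2 CPM in PBS. The groups overlapped, and Zmat3 had the widest relative spread within irisin (coefficient of variation 20.9%), where replicate 1 was the lowest (log2 fold change -0.24 ± 0.19, 95% confidence interval -0.65 to 0.17, adjusted p = 0.593 in edgeR's quasi-likelihood test).

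Trp53 and Phlda3 kept their directions under the other ways of processing the counts, while their calls did not hold under all of them, and the calls of Mdm2 and Cdkn1a appeared under some.

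**Figure D2:**
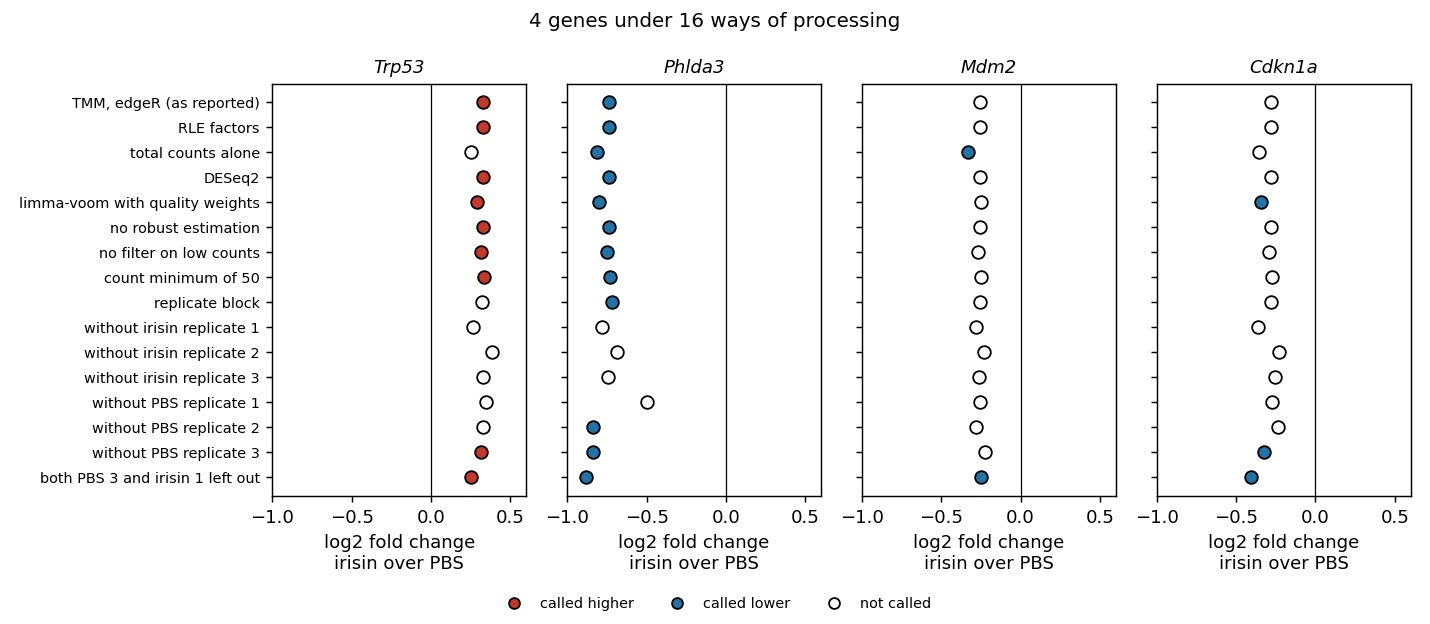
Log2 fold change of irisin over PBS (horizontal axis) of Trp53, Phlda3, Mdm2 and Cdkn1a under the reported processing and 15 alternatives (rows), filled where the gene was called at an adjusted p of 0.05. Values ran from 0.25 to 0.39 for Trp53, from -0.88 to -0.50 for Phlda3, from -0.34 to -0.23 for Mdm2 and from -0.41 to -0.23 for Cdkn1a, all on their own side of 0.

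Levels of different genes can be set side by side only per length, here CPM per kilobase of annotated exon. On this scale the order in irisin was Ccng1 (55.2 ± 2.50), Bax (52.7 ± 2.20), Trp53 (49.1 ± 4.15), Cdkn1a (22.8 ± 2.16), Mdm2 (17.8 ± 0.692), Sesn2 (12.4 ± 0.227), Phlda3 (9.37 ± 0.646), Sesn1 (9.33 ± 0.635), Zmat3 (2.61 ± 0.544) and Bbc3 (0.456 ± 0.0881). Among neighbours in that order, Ccng1 and Bax, Bax and Trp53, and Phlda3 and Sesn1 did not differ beyond their SDs (n = 3). In PBS the order was Bax (54.1 ± 0.500), Ccng1 (52.4 ± 2.51), Trp53 (39.1 ± 0.922), Cdkn1a (27.8 ± 1.87), Mdm2 (21.3 ± 0.763), Phlda3 (15.6 ± 4.0), Sesn2 (10.3 ± 1.83), Sesn1 (9.71 ± 0.846), Zmat3 (3.07 ± 0.686) and Bbc3 (0.433 ± 0.294). There, Bax and Ccng1, Phlda3 and Sesn2, and Sesn2 and Sesn1 lay within their SDs of each other. The lengths are those of GENCODE M21, which may differ from the annotation that the authors counted over. Within irisin, replicate 1 held the highest value of 7 of the 10 genes, and within PBS, replicate 3 held the lowest value of 6.

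A ratio of counts within a library does not depend on how libraries are scaled, and the counts of each target were set against those of Trp53 after the values above had been seen. Mdm2 had 43.6, 47.8 and 45.9 counts per 100 Trp53 counts in irisin, against 66.8, 66.2 and 72.7 in PBS. For Cdkn1a the ratios were 41.7, 41.2 and 39.5 in irisin, against 61.3, 66.3 and 59.3 in PBS. For Phlda3 they were 7.21, 7.44 and 7.42 in irisin, against 19.4, 13.1 and 13.3 in PBS. The ratios of Mdm2, Cdkn1a, Bax, Ccng1, Phlda3 and Sesn1 were lower in all irisin libraries than in all PBS libraries, and those of Sesn2, Zmat3 and Bbc3 overlapped. Because Trp53 itself rose, 44.7% of the other genes tested were lower without overlap on this scale and 3.20% were higher. The 6 lower targets are to be set beside those shares, which do not cover Bbc3, as it was not tested.

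**Figure D3:**
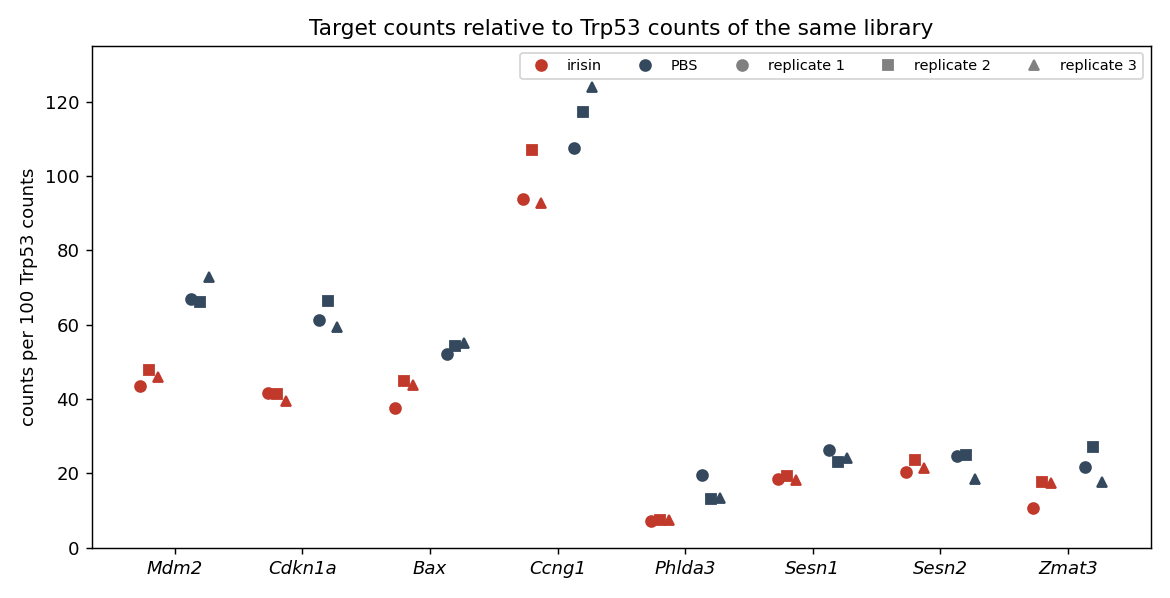
Counts of 8 targets per 100 Trp53 counts of the same library (vertical axis, from 0), in 3 irisin and 3 PBS libraries with a symbol for each replicate. Mdm2 averaged 45.8 in irisin and 68.6 in PBS, Cdkn1a 40.8 in irisin and 62.3 in PBS, and the groups overlap for Sesn2 and Zmat3.

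The promoters of Trp53, of Phlda3, and of 3 targets that did not pass are shown as examples. They were picked with their matches known, so they cannot compare genes that moved with genes that did not. The windows run from 250 bases before to 50 bases after a transcript start and come from RefSeq (GRCm38.p6), which gave 13 windows for 9 of the 10 genes. Each is written 5′ to 3′ on the strand of the gene. Capitals mark matches to the p53 decamer consensus, the palindromic arm that occurs as a pair in p53 response elements, and any second arm with up to 1 mismatch that lies within 13 bases of such a match.
Trp53, chr11:69580109-69580408 (plus strand): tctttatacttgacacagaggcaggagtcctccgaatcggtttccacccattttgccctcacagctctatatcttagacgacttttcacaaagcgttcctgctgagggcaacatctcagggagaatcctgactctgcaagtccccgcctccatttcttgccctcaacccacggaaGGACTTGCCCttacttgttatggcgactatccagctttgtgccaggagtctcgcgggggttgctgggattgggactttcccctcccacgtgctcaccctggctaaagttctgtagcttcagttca
Phlda3, chr1:135765835-135766134 (plus strand): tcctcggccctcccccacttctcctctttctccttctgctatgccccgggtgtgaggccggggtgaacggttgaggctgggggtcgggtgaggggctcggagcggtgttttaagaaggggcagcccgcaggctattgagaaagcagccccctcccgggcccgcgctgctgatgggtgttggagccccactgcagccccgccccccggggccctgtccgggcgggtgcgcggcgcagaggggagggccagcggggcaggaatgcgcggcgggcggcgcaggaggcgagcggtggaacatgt
Mdm2, chr10:117710709-117711008 (minus strand): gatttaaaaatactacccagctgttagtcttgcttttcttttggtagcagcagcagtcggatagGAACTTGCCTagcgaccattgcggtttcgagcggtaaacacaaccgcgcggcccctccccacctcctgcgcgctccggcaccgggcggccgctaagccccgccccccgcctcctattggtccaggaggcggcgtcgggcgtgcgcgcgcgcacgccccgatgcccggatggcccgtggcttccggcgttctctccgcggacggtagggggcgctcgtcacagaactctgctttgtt
Cdkn1a, chr17:29090729-29091028 (plus strand): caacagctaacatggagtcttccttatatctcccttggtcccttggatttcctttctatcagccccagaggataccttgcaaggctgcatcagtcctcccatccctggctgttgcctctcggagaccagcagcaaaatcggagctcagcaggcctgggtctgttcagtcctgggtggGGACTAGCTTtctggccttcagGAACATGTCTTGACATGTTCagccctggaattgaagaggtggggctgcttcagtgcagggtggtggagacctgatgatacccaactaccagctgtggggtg
Ccng1, chr11:40755237-40755536 (minus strand): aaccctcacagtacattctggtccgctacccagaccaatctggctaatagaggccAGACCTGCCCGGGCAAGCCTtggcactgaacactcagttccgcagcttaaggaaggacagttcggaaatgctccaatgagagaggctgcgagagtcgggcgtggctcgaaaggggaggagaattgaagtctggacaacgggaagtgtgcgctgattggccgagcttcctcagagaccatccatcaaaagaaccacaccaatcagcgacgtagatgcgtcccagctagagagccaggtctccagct
Being its own reverse complement, the decamer reads the same on both strands. An exact match was found in a window of 6 of the 9 genes (Trp53, Mdm2, Cdkn1a, Bax, Ccng1 and Sesn1) and of 9.55% of all 27025 genes with a window. By window these were 6 of 13 and 8.36% of all 32851. A pair of arms with up to 1 mismatch in all was found for 2 of the 9 genes, Cdkn1a and Ccng1, and for 0.718% of all genes. That limit, and the windows shown, were chosen after the matches had been seen: a first search with up to 3 mismatches found pairs for 6 of the 9 genes (Trp53, Cdkn1a, Bax, Bbc3, Ccng1 and Sesn1) and for 17.4% of all genes. In the upstream window of Cdkn1a, the decamer GAACATGTCT at position -51 from that start is followed at once by TGACATGTTC, which has 1 mismatch, and GGACTAGCTT lies at -73. The window of Ccng1 holds AGACCTGCCC, with 1 mismatch, directly before GGGCAAGCCT at -185. The windows of Phlda3, Sesn2 and Bbc3 and the downstream window of Cdkn1a held no exact match, which says only that these letters are not in these windows. The Phlda3 window ends in gaacatgt, which fits the start of the decamer, so a match across that edge could not be scored.

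Other genes that p53 activates directly went both ways. Of 36 such genes, 33 passed the count filter, 3 rose and 1 fell (4.20% and 3.22% of all genes tested), and their median log2 fold change was -0.08. Dram1, a lysosomal membrane protein of autophagy, had 412, 419 and 408 CPM in irisin, against 190, 202 and 197 CPM in PBS (log2 fold change 1.08 ± 0.08, adjusted p = 1.46e-06 in edgeR's quasi-likelihood test). Fas, the death receptor, had 56.0, 44.1 and 44.2 CPM in irisin, against 18.4, 21.5 and 22.6 CPM in PBS (log2 fold change 1.21 ± 0.14, adjusted p = 9.99e-05). Neither gene had overlapping groups, and the fitted fold change was 2.11 for Dram1 and 2.31 for Fas. Dcxr, a reductase of sugars and dicarbonyls, averaged 23.3 ± 4.68 CPM in irisin and 14.1 ± 2.02 CPM in PBS (log2 fold change 0.72 ± 0.18, adjusted p = 0.0288), a call lost without irisin replicate 1 or 3 or PBS replicate 1 (adjusted p up to 0.154). Gdf15, a stress cytokine of the TGF-β family, had 10.2, 11.4 and 8.48 CPM in irisin, against 19.3, 25.4 and 20.6 CPM in PBS, and fell (log2 fold change -1.12 ± 0.18, adjusted p = 0.00137). The other 29 lay between -0.74 for Plk3 and 0.59 for Ddit4 on the log2 fold change scale. Pmaip1, Perp and Gadd45a, 3 more targets with roles in death or arrest, were below the count filter.

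**Figure D4:**
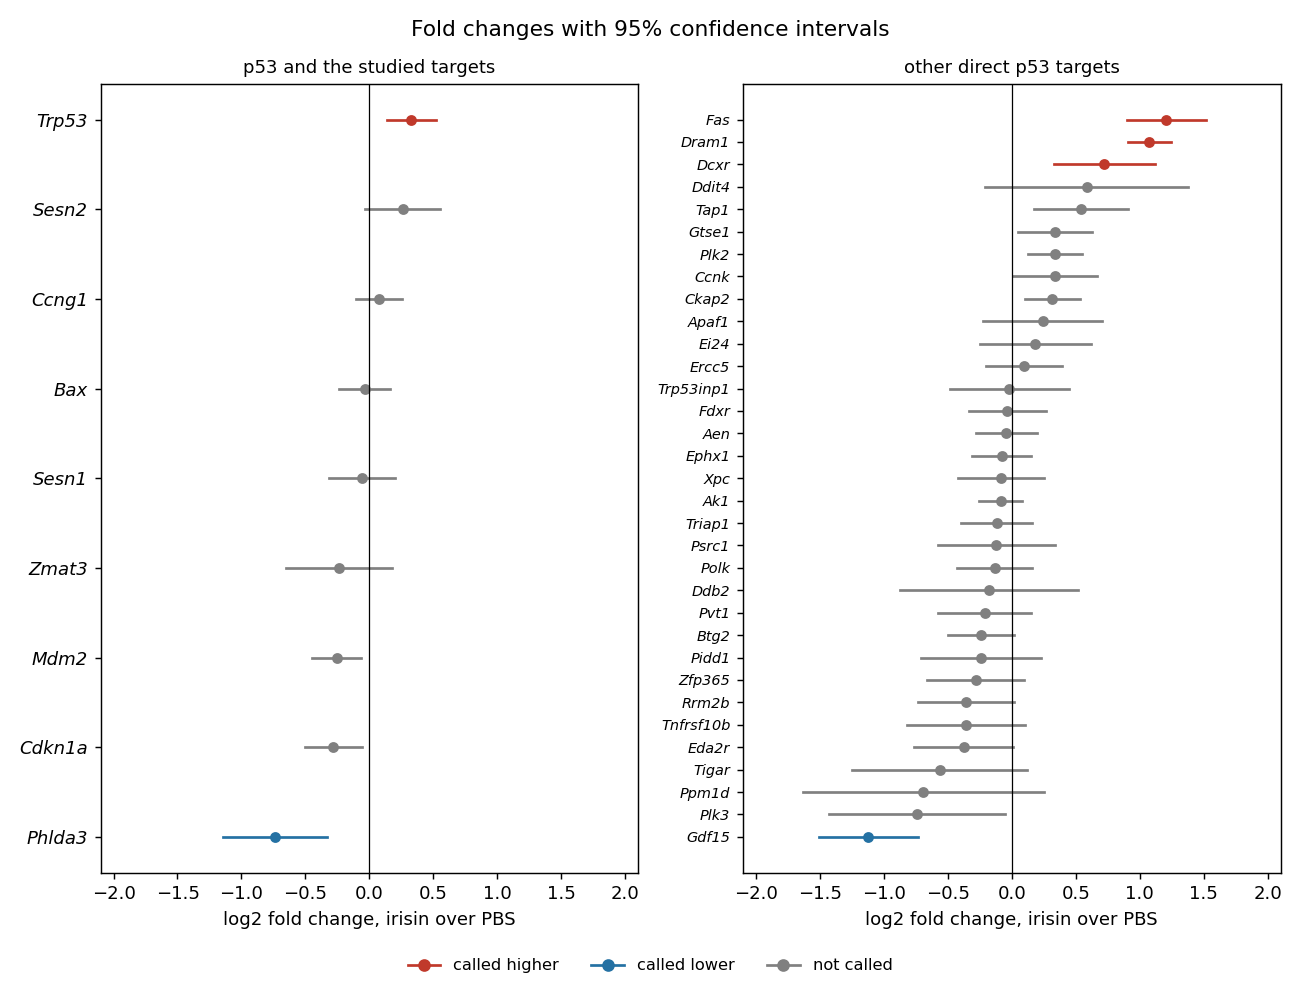
Log2 fold changes of irisin over PBS (horizontal axis) with 95% confidence intervals, for the 9 tested genes of the p53 set on the left and 33 other direct p53 targets on the right, coloured by call. Trp53 is the single gene called higher and Phlda3 the single gene called lower on the left, and Fas, Dram1, Dcxr and Gdf15 are called on the right.

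Of 23 genes that act on p53 (kinases, acetylases, ligases and the related factors Trp63 and Trp73), 20 were tested and edgeR called none. At an unadjusted p under 0.05 it gave 1, Hipk2, a kinase that phosphorylates p53 (49.95 ± 8.34 CPM in irisin, 38.5 ± 4.26 CPM in PBS, adjusted p = 0.163). DESeq2 and limma-voom called none either, and Hipk2 passed as higher without irisin replicate 1 (adjusted p = 0.0419), as it did with PBS replicate 3 omitted too. Cdkn2a, whose product ARF blocks Mdm2, averaged 0.246 CPM in irisin and 0.0484 CPM in PBS and was not tested.

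A list of the BCL-2 family, to which Bax belongs, the caspases, and activators and inhibitors of the caspase cascade held 23 tested genes. Of these 1 rose and 1 fell, a share near that of all genes tested (4.20% higher and 3.22% lower). The rise was in Birc3 and the fall in Bcl2l1, and the median log2 fold change of the list was -0.01. Birc3, an inhibitor of apoptosis protein that acts in NF-κB signalling, had 62.1, 64.5 and 63.0 CPM in irisin, against 27.9, 29.5 and 29.6 CPM in PBS (log2 fold change 1.12 ± 0.11, adjusted p = 1.42e-05 in edgeR's quasi-likelihood test). Bcl2l1, which encodes the survival protein BCL-XL, averaged 113 ± 10.6 CPM in irisin and 143 ± 3.79 CPM in PBS (log2 fold change -0.33 ± 0.09, adjusted p = 0.0486). Its call was lost with RLE factors, with DESeq2 and without irisin replicate 2 or 3 or PBS replicate 1 or 2 (adjusted p up to 0.237). Bok, a relative of Bax, had a log2 fold change of -0.30 ± 0.08 and an adjusted p of 0.0544, and Bmf, which binds survival proteins, one of -0.93 ± 0.33 with an adjusted p of 0.129.

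Among 19 tested G1 cyclins, their kinases, CDK inhibitors and pocket proteins, 1 rose, near the 4.20% of all genes tested, and none passed as lower (2 at an unadjusted p under 0.05 in edgeR, with 0 lower by DESeq2 and by limma-voom after adjustment). Cdkn2b encodes p15, an inhibitor of Cdk4 and Cdk6, and had 49.3, 41.4 and 39.0 CPM in irisin, against 23.9, 19.0 and 21.2 CPM in PBS. It rose 2.02-fold without overlap (log2 fold change 1.01 ± 0.14, adjusted p = 0.000429 in edgeR's quasi-likelihood test). Ccnd2, a G1 cyclin, averaged 332 ± 20.9 CPM in irisin and 282 ± 16.3 CPM in PBS (adjusted p = 0.138), and neither Rbl1, a pocket protein, nor the transcription factor E2f3 passed (adjusted p = 0.253 for both).

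Mitosis genes that are repressed through p21 and the DREAM complex were compared because p21 can act on them. Whether the level of Cdkn1a had a part in their levels was not tested. All 24 were tested, 4 rose and none passed as lower (0 at an unadjusted p under 0.05 in edgeR, and 0 by DESeq2 and limma-voom), where 4.20% of all genes tested were higher and 3.22% were lower. Their log2 fold change was above 0 in 21, with a median of 0.22, where the median of all genes tested was -0.01. Genes of this list may move together, so the 21 are not separate observations. The summed level of the 24 was 1725 to 1820 CPM in irisin and 1451 to 1694 CPM in PBS, with a narrow gap between irisin replicate 2 and PBS replicate 3. With total counts alone 0 passed as higher and 18 lay above 0. With irisin replicate 1 and PBS replicate 3 omitted together, 7 passed as higher. Under that omission 892 of all 12432 genes tested were higher, against 516 of 12296 with all libraries. The 4 were Cenpa, a centromere histone (65.1 ± 2.98 CPM in irisin, 48.2 ± 4.97 CPM in PBS), Cdc25c, a phosphatase that activates Cdk1 (22.8 ± 1.99 CPM in irisin, 15.5 ± 0.547 CPM in PBS), the mitotic kinase Plk1 (89.1 ± 7.09 CPM in irisin, 67.9 ± 4.65 CPM in PBS) and the cyclin Ccnb2 (76.3 ± 1.91 CPM in irisin, 57.7 ± 5.95 CPM in PBS). Their log2 fold changes were 0.39 to 0.56 and their adjusted p-values 0.0301 to 0.0370 in edgeR's quasi-likelihood test. Each of the 4 calls was lost with total counts alone, with the replicate number as a block, and without irisin replicate 2 or 3 or PBS replicate 1. Cdc25c shares 623 exon bases and Plk1 156 with a gene on the opposite strand.

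Sesn2 is also a target of ATF4, the factor of the integrated stress response, so 18 genes of that branch were counted. Of 17 tested, Trib3, a pseudokinase, rose (34.1 ± 1.27 CPM in irisin, 25.1 ± 1.73 CPM in PBS, adjusted p = 0.0470 in edgeR's quasi-likelihood test) and Atf3, a stress-induced transcription factor, fell. These counts of 1 in each direction are close to the 4.20% and 3.22% of all genes tested. Atf3 had 6.88, 10.2 and 8.96 CPM in irisin, against 19.2, 20.1 and 13.6 CPM in PBS (log2 fold change -1.03 ± 0.21, adjusted p = 0.00758). The call of Trib3 was lost with DESeq2, with total counts alone and without any 1 of the 6 libraries (adjusted p up to 0.151). The median log2 fold change of the 17 was -0.01, equal to that of all genes tested at 2 decimals.

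**Figure D5:**
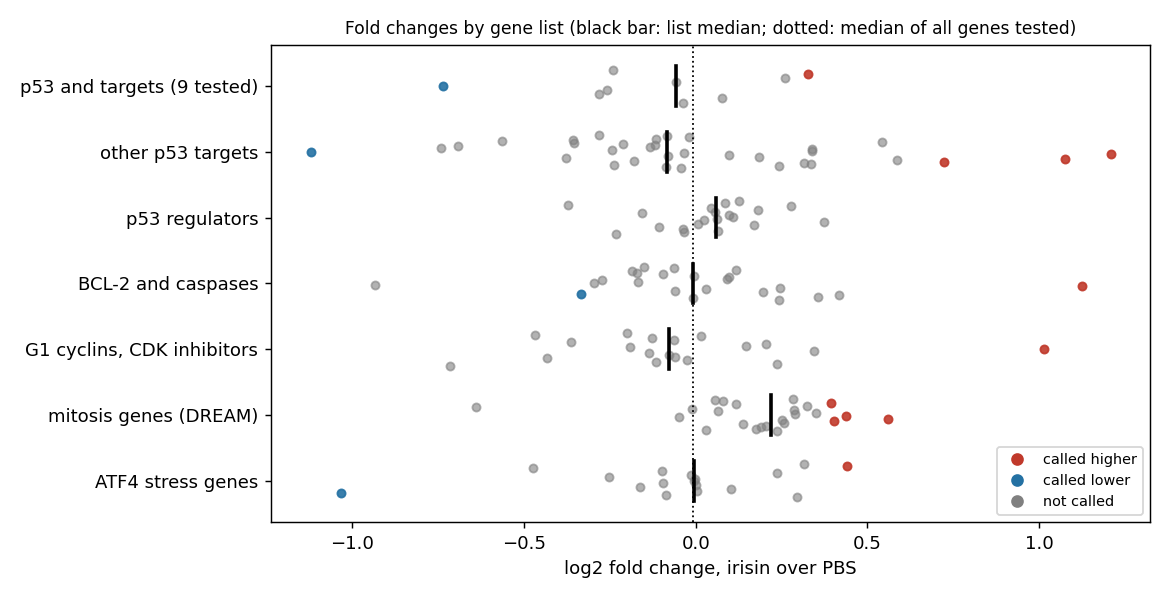
Log2 fold changes of irisin over PBS (horizontal axis) of all tested genes in 7 lists (rows), coloured by call, with the list median as a black bar and the median of all genes tested as a dotted line. The p53 set has its median at -0.06 and the mitosis genes at 0.22, and single genes such as Fas, Dram1, Birc3 and Cdkn2b lie above 1.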

How the data were processed

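Polyadenylated RNA of 3 irisin and 3 PBS libraries was measured. The authors deposited raw counts, whole numbers per gene symbol, in a single table. STAR 2.7.3a, featureCounts and mm10 were used, per the submitters' processing notes. No source used here gives the annotation release, the strand setting or the treatment of multi-mapped reads. Columns were matched to samples by library name.

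With edgeR 4.0.16 in R 4.3.3, TMM factors were computed from the deposited counts, 12296 of 31436 genes with any count were kept (filterByExpr, count minimum 10), and the robust quasi-likelihood test was run with group as the sole term. Adjusted p-values are by Benjamini-Hochberg over all tested genes, with a threshold of 0.05. Standard errors are the absolute log2 fold change over the square root of F. Levels in CPM use the TMM-scaled sum of tested genes. The steps were checked on simulated data. There, 21 of 49 genes changed 1.5-fold and 40 of 49 changed 2-fold were recovered, and 13 of 170 calls were false. A gene that did not pass may thus have changed by a small fold.

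The members, lists and tests were chosen with earlier results of these data known. All 10 members were named. From each list of related genes, up to 4 of lowest p were named, and all called genes where 5 or fewer were called in a direction. Plk3 and Ddit4, as ends of a range, genes below the count filter and the marker genes named were chosen after their values were seen, as were the promoter windows shown and the mismatch limit for decamer pairs. Alternatives were RLE factors, total counts, DESeq2 1.42.0, limma-voom (limma 3.58.1) with quality weights, no robust estimation, no filter, a count minimum of 50, a replicate block, each library omitted in turn, and irisin replicate 1 with PBS replicate 3 omitted. That last pair stood apart on the second principal component. Without it 1680 genes passed in all, against 912 with all libraries. No library matched another within counting error, since chi-square per degree of freedom was at least 2.59 for any pair. This does not show whether replicates were separate cultures or animals. Gene positions and exon lengths came from GENCODE M21 (GRCm38).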

Additional observations from a re-analysis of the deposited data

How the results depend on the processing

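The direction of the log2 fold change of Trp53, Phlda3, Mdm2, Cdkn1a, Bax, Sesn2 and Zmat3 was the same under all 15 alternatives, and that of Ccng1 (total counts) and Sesn1 (without PBS replicate 1) crossed 0 without a call. With total counts alone, 0 of the p53 genes were called higher and 2 lower, and 602 of all genes were lower. With limma-voom 2 p53 genes were lower (Phlda3 and Cdkn1a), and with no low-count filter 5 of the other p53 targets were higher. With irisin replicate 1 and PBS replicate 3 omitted together, 3 p53 genes were lower (Phlda3, Mdm2 and Cdkn1a), and of all genes 892 were higher and 788 lower. Leaving out each library in turn gave 336 to 705 higher and 238 to 585 lower genes in all, 0 to 1 higher and 0 to 2 lower p53 genes, and 2 to 4 higher and 1 lower among the other p53 targets. The cause of these shifts was not tested. With the replicate number as a block, 0 p53 genes were higher and 1 lower (Trp53 adjusted p = 0.116, Phlda3 0.0406), and 0 of the 24 mitosis genes were higher, against 4 without the block. Deviations from the group mean correlated at -0.238, 0.164 and -0.177 for replicates 1, 2 and 3 across groups. Irisin replicate 2 correlated best with its own number, irisin replicate 1 with PBS replicate 3 (0.360) and irisin replicate 3 with PBS replicate 1 (0.136). Deviations within a group depend on each other, so these values cannot decide whether equal numbers mark pairs. Depth limits Bbc3, at 2 to 11 counts a library. Without the filter its log2 fold change was 0.01 (edgeR adjusted p = 0.998).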
